A study of Mus musculus with 4 samples.

Results

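The 44 genes described here encode cyclins, cyclin-dependent kinases (CDKs), retinoblastoma-family pocket proteins, E2F transcription factors, replication licensing factors and mitotic kinases. They were taken as a list of gene symbols, and their probes were found by matching the RefSeq accessions on the array to the genes' transcripts. Of the 33378 genes or transcripts on the array, 43 were members with a matched probe, and Mki67, the Ki-67 proliferation marker, had none. The 43 genes had 62 probes, and 42 of them were well above background on all 4 arrays. They fall into 16 genes of G1, 13 of S phase and 15 of mitosis.

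RNA was measured in mouse induced pluripotent stem (iPS) lines 7 and 13 (n = 2), made from bone marrow mononuclear cells, in E14 embryonic stem (ES) cells (n = 1) and in mononuclear cells of bone marrow (BMMNCs, n = 1). The iPS lines were of strain C57BL/6 and came from mice carrying an Oct4-EGFP transgene, the ES cells were of strain 129, and the BMMNCs were of strain C57BL/6 with no transgene named. ES and iPS cells were grown with serum and leukemia inhibitory factor on irradiated embryonic fibroblasts, which were then depleted by plating on gelatin. Each iPS line was 1 line on 1 array, and the labels do not say how the lines were reprogrammed or how many animals gave the marrow.

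Each array was a single-colour Agilent array, and all lay on 1 slide with 1 scan time. Between 54.6% and 59.0% of probes were well above background, and the 75th percentile of signal lay between 581 and 1070. The 8 pluripotency markers were well above background in all 3 pluripotent cultures, with summed levels of 532.6 and 548.7 times the percentile signal in iPS lines 7 and 13, 692.3 in ES cells and 0.306 in BMMNCs. Summed over 8 erythroid and 9 granulocyte markers, BMMNCs reached 1560 and 2532, and the highest sum of a pluripotent culture for either list was 0.292. The other blood lists were less far apart. BMMNCs reached 128.7 for B cell, 28.9 for T and NK cell and 38.9 for monocyte markers. The highest sums of a pluripotent culture for these lists were 0.99, 2.24 and 1.59. The 10 fibroblast markers were well above background in every pluripotent culture, with sums of 538.6 and 505.7 in iPS lines 7 and 13, 460.0 in ES cells and 10.8 in BMMNCs. BMMNCs are a mixture of blood cell types at different stages. The part of the fibroblast signal and of blood cell composition in the results below was not tested, and in such bulk samples fewer cells of a type and less RNA per cell cannot be told apart.

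In a cycling cell, D cyclins with CDK4 or CDK6, and then E cyclins with CDK2, phosphorylate the pocket proteins RB1, RBL1 and RBL2, which hold E2F factors in check. Released E2F drives genes of DNA replication, among them the licensing factors CDC6 and CDT1 and the MCM helicase, which load onto origins in G1 and unwind DNA in S phase. Genes of mitosis are transcribed later under MYBL2, FOXM1 and the MuvB complex, which reads a cell cycle homology region (CHR) in their promoters. ES cells are known for a short G1 and high CDK activity through the cycle.

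Promoter windows of the members were searched for the letters these factors are known to bind. RefSeq windows (assembly GRCm38.p6, 250 bases before to 50 after a gene's start) were available for 33 members, in 37 windows, and 11 members had none. E2F letters were searched on both strands as TTTCGCGC or TTTGGCGC or TTTCCCGC or TTTGCCGC, CHR letters as TTTGAA or TTCGAA, and the CCAAT box as CCAAT. E2F letters occurred in 6 of 10 S-phase members, 5 of 11 G1 members and 1 of 12 mitotic members, against 3.29% of 17492 protein-coding genes and 2.61% of all genes in the table. CHR letters occurred in 10 of 12 mitotic members, 3 of 10 S-phase members and 3 of 11 G1 members, against 20.2% of protein-coding genes. The CCAAT box occurred in 11 of 12, 8 of 10 and 5 of 11 members of mitosis, S phase and G1, against 42.3%. In 1 member window, that of Mcm7, matches of different motifs overlapped.

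**Figure D1:**
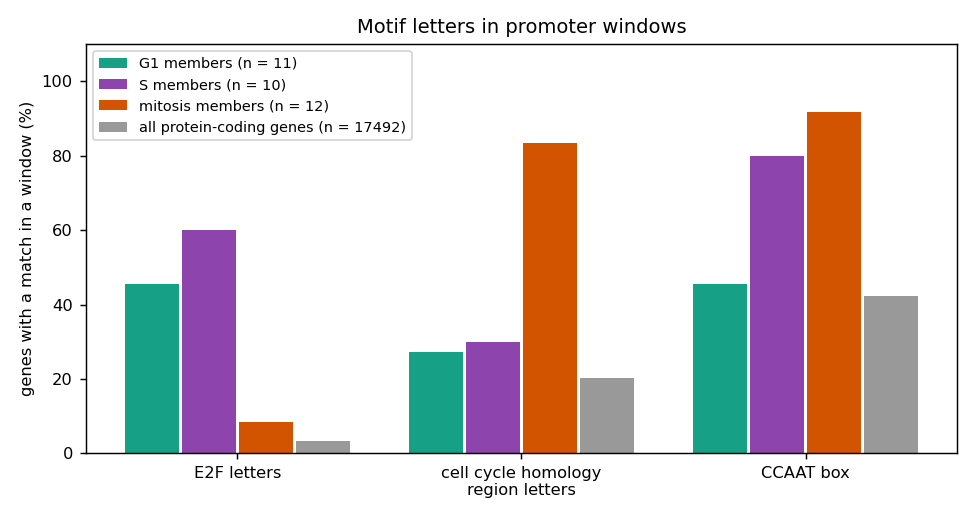
Percentage of genes with at least 1 match to each motif in their RefSeq promoter windows, for G1, S-phase and mitotic members and for all protein-coding genes. CHR letters were found in 83.3% of mitotic members and E2F letters in 60% of S-phase members, against 20.2% and 3.29% of protein-coding genes.

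Windows of 6 members are printed as examples of windows with matches. Rbl1 and E2f2 were far lower in iPS cells than in BMMNCs. Mcm6 and Mcm7 encode helicase subunits that passed the test in neither direction, and Cdk1 and Top2a are genes of mitosis. Capitals mark E2F and CHR letters on either strand, and each printed window holds such letters.
Rbl1, chr2:157204485-157204784, minus strand: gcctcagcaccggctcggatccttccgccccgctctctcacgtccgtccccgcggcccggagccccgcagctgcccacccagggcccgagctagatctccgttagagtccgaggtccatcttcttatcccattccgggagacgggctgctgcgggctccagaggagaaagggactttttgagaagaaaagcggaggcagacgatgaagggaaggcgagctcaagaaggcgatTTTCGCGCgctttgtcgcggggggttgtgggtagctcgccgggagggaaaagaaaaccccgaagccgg
E2f2, chr4:136172024-136172323, plus strand: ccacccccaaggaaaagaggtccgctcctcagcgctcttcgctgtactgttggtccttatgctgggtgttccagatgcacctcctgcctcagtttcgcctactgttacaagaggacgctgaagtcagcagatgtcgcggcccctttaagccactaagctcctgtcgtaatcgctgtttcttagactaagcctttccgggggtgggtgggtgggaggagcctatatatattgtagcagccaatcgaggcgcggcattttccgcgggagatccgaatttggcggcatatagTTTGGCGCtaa
Mcm6, chr1:128359656-128359955, minus strand: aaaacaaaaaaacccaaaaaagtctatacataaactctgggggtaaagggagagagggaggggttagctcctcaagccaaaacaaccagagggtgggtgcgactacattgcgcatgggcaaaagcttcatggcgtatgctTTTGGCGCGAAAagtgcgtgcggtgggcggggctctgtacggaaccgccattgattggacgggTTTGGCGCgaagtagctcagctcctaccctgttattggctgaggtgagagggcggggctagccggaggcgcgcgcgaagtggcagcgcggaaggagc
Mcm7, chr5:138171834-138172133, minus strand: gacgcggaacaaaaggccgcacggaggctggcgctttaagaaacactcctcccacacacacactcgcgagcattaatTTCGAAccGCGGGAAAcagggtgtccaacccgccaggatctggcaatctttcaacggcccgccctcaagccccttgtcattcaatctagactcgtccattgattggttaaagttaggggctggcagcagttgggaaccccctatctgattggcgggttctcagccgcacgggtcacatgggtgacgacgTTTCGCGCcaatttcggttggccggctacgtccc
Cdk1, chr10:69352863-69353162, minus strand: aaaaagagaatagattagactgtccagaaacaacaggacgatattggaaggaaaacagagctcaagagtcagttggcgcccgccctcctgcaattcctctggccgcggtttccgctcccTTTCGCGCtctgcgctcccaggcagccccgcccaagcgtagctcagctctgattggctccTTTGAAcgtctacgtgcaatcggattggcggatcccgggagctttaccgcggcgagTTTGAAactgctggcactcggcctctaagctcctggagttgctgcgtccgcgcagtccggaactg
Top2a, chr11:99024140-99024439, minus strand: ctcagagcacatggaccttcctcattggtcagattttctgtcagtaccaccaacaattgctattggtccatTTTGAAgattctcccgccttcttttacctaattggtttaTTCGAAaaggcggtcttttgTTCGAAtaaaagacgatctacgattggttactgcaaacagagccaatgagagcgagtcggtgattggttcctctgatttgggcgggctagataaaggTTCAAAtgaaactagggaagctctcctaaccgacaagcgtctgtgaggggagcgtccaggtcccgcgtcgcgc
A second E2f2 window held CHR letters and no E2F letters, and a second Mcm7 window held neither. The windows of Mybl2 and Ccnb1, the mitotic members with the largest rises against BMMNCs, also held neither. The Mcm6 window held 3 E2F matches, 2 of them overlapping, and the Cdk1 window held both E2F and CHR letters. Top2a carried 4 CHR matches and 6 CCAAT boxes. A match is a string of letters and shows no binding.

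The iPS lines were compared with BMMNCs to ask how the cell cycle genes stood after reprogramming of marrow cells. Levels are log2 signals minus the array's 75th percentile, and differences are iPS minus the other group. Of 43 members tested, 18 rose and 12 fell in limma's fit over all genes (Benjamini-Hochberg adjusted p under 0.05), and 13 did not pass. Median scaling, which lowers every iPS minus BMMNC difference, gave 14 risen and 17 fallen. Over all 21216 genes tested, 75.6% were called, 38.3% risen and 37.4% fallen, and the members' 69.8% lies near that background. The members' median difference was 0.06, against 0.01 over all genes. The error in this fit comes from the 2 iPS lines alone, and the single ES and BMMNC arrays are taken to vary like them. By size, in both lines 7 members were higher by 2-fold or more (Ccna1, Ccnb1, Ccnd1, Ccne1, Cdk6, E2f3 and Mybl2), against 25.1% of all genes. Another 7 were at least 2-fold lower (Ccna2, Ccnd3, Cdc25b, E2f2, Rb1, Rbl1 and Rbl2), against 25.7%. Together these are 32.6% of members, against 50.7% of all genes.

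The 3 phases differed in how many members were called. In G1 all 16 members passed, 8 risen and 8 fallen. In S phase 2 rose, 2 fell and 9 did not pass. In mitosis 8 rose, 2 fell and 4 did not pass. The shares called were 100% in G1, 30.8% in S phase and 71.4% in mitosis. Over all genes 75.6% were called, 38.3% risen and 37.4% fallen. The difference between phases was not tested. Of the 30 called members, 13 lost their call under at least 1 alternative (Aurka, Bub1, Ccnb2, Ccnd2, Ccne2, Cdc25a, Cdk1, Cdk2, Cdk6, Cdt1, E2f1, E2f4 and Pcna), and Cdk2 also changed sign under 1.

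**Figure D2:**
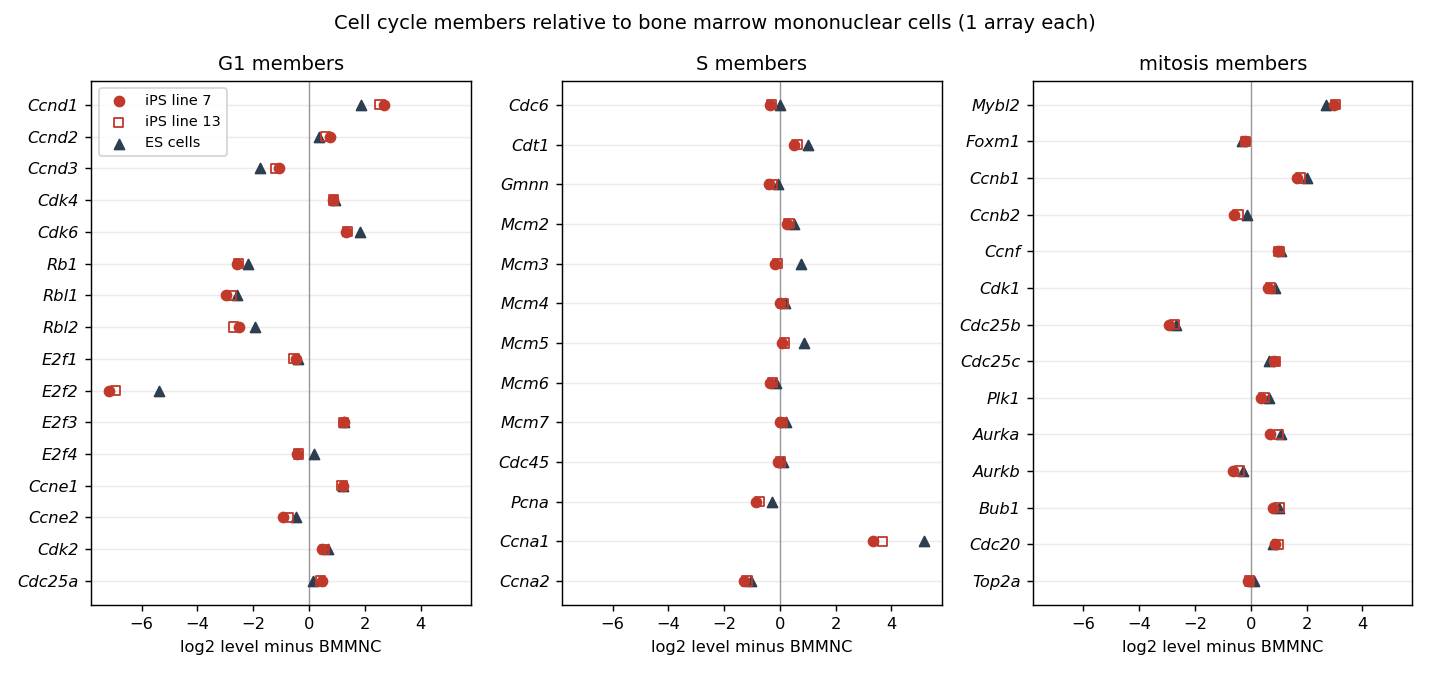
Log2 level minus that of BMMNCs for each member in iPS line 7 (filled circles), iPS line 13 (open squares) and ES cells (triangles), in panels for G1, S phase and mitosis, with 1 array per sample. For the mean of the iPS lines, which is not drawn, E2f2 is at -7.06 and the 6 MCM genes are between -0.30 and 0.29. In ES cells the 6 MCM genes run from -0.14 (Mcm6) to 0.87 (Mcm5). The plotted value of Ccna1 rests on a BMMNC signal that was not well above background.

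The D cyclins, which activate CDK4 and CDK6 in response to growth signals, changed in opposite directions. Ccnd1 stood at 2.56 and 2.41 in iPS lines 7 and 13, at 1.75 in ES cells and at -0.14 in BMMNCs. In iPS cells it was 6.16-fold higher than in BMMNCs (log2 difference 2.62, SE 0.12, limma adjusted p = 0.00151). Ccnd3, the D cyclin known for its role in lymphocyte and red cell precursors, was at 3.999 and 3.89 in the iPS lines, 3.34 in ES cells and 5.09 in BMMNCs. It fell by 1.14 on the log2 scale (SE 0.11, limma adjusted p = 0.0054). Ccnd2 was higher by 0.67 (SE 0.12, limma adjusted p = 0.0189), and its 3 probes gave 0.18 to 0.72. For each D cyclin the ES array lay below both iPS arrays.

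Both partner kinases rose. Cdk4 was at 3.11 in each iPS line, 3.18 in ES cells and 2.24 in BMMNCs, a difference of 0.87 (SE 0.09, limma adjusted p = 0.00663). Cdk6 rose by 1.35 on its brighter probe (SE 0.10, limma adjusted p = 0.00332), with all 3 pluripotent arrays above BMMNCs. The dimmer Cdk6 probe went the other way, at -1.26, though it too was well above background on all 4 arrays.

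All 3 pocket proteins fell. Rb1 was at 0.44 and 0.49 in iPS lines 7 and 13, 0.81 in ES cells and 3.01 in BMMNCs, which is 5.83-fold lower in iPS cells (limma adjusted p = 0.00119). Rbl1, or p107, was at -0.91 and -0.73 in the iPS lines, -0.53 in ES cells and 2.05 in BMMNCs, a fall of 7.32-fold (limma adjusted p = 0.00156). Rbl2, or p130, the pocket protein of resting cells, was at -2.24 and -2.42 in the iPS lines, -1.64 in ES cells and 0.28 in BMMNCs. It was 6.11-fold lower in iPS cells (limma adjusted p = 0.0018). BMMNCs stood above all 3 pluripotent arrays for each, and both probes of Rbl2 gave differences under -2. The second Rb1 probe lay at background on all 4 arrays.

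The largest difference of any member was in E2f2, an activator E2F. Its levels were -1.098 and -0.87 in iPS lines 7 and 13, 0.72 in ES cells and 6.08 in BMMNCs. The iPS lines were 133.7-fold lower than BMMNCs (log2 difference -7.06, SE 0.15, limma adjusted p = 0.000746). The other E2F members moved far less. E2f3, also an activator, rose by 1.25 (SE 0.09, limma adjusted p = 0.00332), with its probes at 1.25 and 1.31. E2f1 fell by 0.50 (SE 0.10, limma adjusted p = 0.0249) on its brighter probe, while its other probe gave 0.12. E2f4, a repressor E2F that pairs with the pocket proteins, fell by 0.41 (SE 0.10, limma adjusted p = 0.0381). It was at -0.51 and -0.46 in iPS lines 7 and 13, 0.09 in ES cells and -0.08 in BMMNCs, so the ES array lay above BMMNCs.

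**Figure D3:**
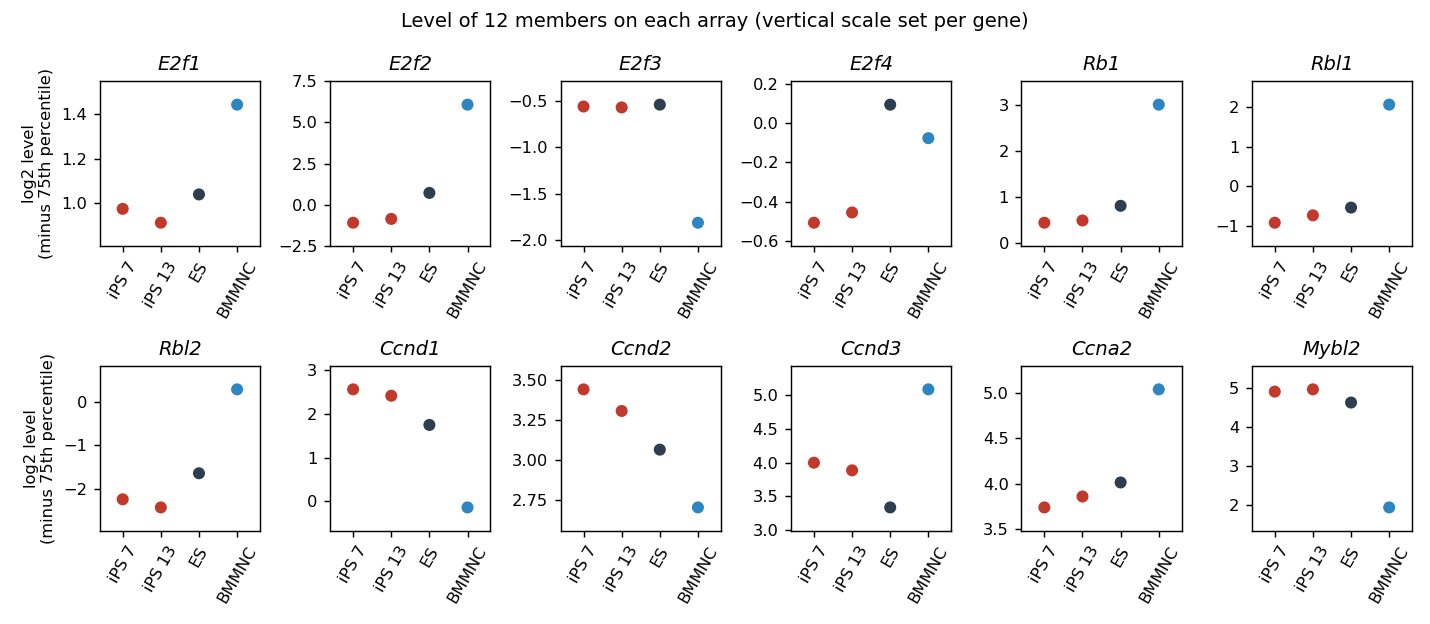
Log2 level minus the array's 75th percentile for 12 members on each of the 4 arrays, with a separate vertical scale per gene. E2f2 and the pocket proteins are highest in BMMNCs (E2f2 at 6.08), while Ccnd1 and Mybl2 are lowest there, at -0.14 and 1.93.

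The remaining G1 members carry the cell past the restriction point. Ccne1, cyclin E1, was at 5.90 and 5.86 in the iPS lines, 5.90 in ES cells and 4.67 in BMMNCs, a rise of 1.21 (SE 0.10, limma adjusted p = 0.00376). Its paralog Ccne2 fell by 0.83 (SE 0.13, limma adjusted p = 0.0155), with both probes below 0. Cdc25a, the phosphatase that activates CDK2, rose by 0.44 (SE 0.09, limma adjusted p = 0.0296). Cdk2 rose by 0.50 on its brighter probe (SE 0.10, limma adjusted p = 0.0288), and the other probe, well above background on every array, gave -1.36.

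Of 9 licensing and helicase genes, Cdt1 alone passed the test between iPS cells and BMMNCs, while 75.6% of all genes tested passed. None of Mcm2, Mcm3, Mcm4, Mcm5, Mcm6 and Mcm7, the subunits of the replicative helicase, passed the test, and their differences ran between -0.30 and 0.29. Mcm6 was at 6.54 and 6.62 in iPS lines 7 and 13, 6.74 in ES cells and 6.89 in BMMNCs. Mcm7 was at 5.90 and 6.01 in the iPS lines, 6.15 in ES cells and 5.91 in BMMNCs. The probes of Mcm3 gave -0.12 and 0.24. The sign of Mcm3, Mcm4, Mcm5 and Mcm7 depended on the setting, and Mcm2 passed under 5 and Mcm6 under 3 of 10 alternatives. Cdt1, which loads the helicase, rose by 0.56 (SE 0.11, limma adjusted p = 0.0231), while Cdc6, its partner, gave -0.32 and Gmnn, the CDT1 inhibitor geminin, -0.34, neither past the threshold (limma adjusted p = 0.0601 and 0.0747). The dimmer Cdc6 probe, well above background on all 4 arrays, gave -1.73. Cdc6 passed as lower under 5 of 10 alternatives, with differences down to -1.03 for the mean of its probes, and Gmnn passed as lower under 4.

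At the replication fork, Cdc45, the helicase cofactor, did not pass, with a difference of -0.03 (limma adjusted p = 0.791). Pcna, the sliding clamp, was at 5.57 and 5.71 in iPS lines 7 and 13, 6.15 in ES cells and 6.43 in BMMNCs, and fell by 0.79 (SE 0.12, limma adjusted p = 0.0138). The A cyclins went opposite ways. Ccna2, the cyclin A of somatic cells, was at 3.74 and 3.86 in the iPS lines, 4.01 in ES cells and 5.04 in BMMNCs, a fall of 1.24 (SE 0.11, limma adjusted p = 0.00478). Ccna1, the cyclin A of the germ line, was at -3.69 and -3.35 in the iPS lines and -1.86 in ES cells, and was not well above background in BMMNCs. With the BMMNC signal taken as measured, its iPS minus BMMNC difference was 3.52 (limma adjusted p = 0.00209). As bounds, which were not tested, it was at least 2.57-fold higher in iPS cells than in BMMNCs and at least 8.11-fold higher in ES cells. These bounds hold for the scaling used here: with normexp, which adds an offset of 50 to each signal, the iPS minus BMMNC difference of Ccna1 was 0.43 on the log2 scale.

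Among genes of mitosis, Mybl2, the transcription factor B-MYB that works with MuvB, rose most. It was at 4.91 and 4.97 in iPS lines 7 and 13, 4.63 in ES cells and 1.93 in BMMNCs, 8.04-fold higher in iPS cells than in BMMNCs (limma adjusted p = 0.001). Foxm1, the other mitotic factor, gave -0.19 and did not pass. Ccnb1, cyclin B1, was at 3.63 and 3.75 in the iPS lines, 3.97 in ES cells and 1.96 in BMMNCs, a rise of 1.73 (SE 0.11, limma adjusted p = 0.00258), and its 3 probes gave 1.60 to 1.79. Its paralog Ccnb2 fell by 0.53 (SE 0.12, limma adjusted p = 0.0331).

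Cdc25b, a phosphatase that activates CDK1 at mitotic entry, fell furthest in this phase. It was at 1.31 and 1.51 in iPS lines 7 and 13, 1.57 in ES cells and 4.24 in BMMNCs, which is 7.15-fold lower in iPS cells (limma adjusted p = 0.00167), with 3 probes at -2.95 to -2.79. Cdc25c rose by 0.85, Ccnf by 0.99 and Cdk1 by 0.65 (limma adjusted p = 0.00771, 0.00543 and 0.0154). The second Cdk1 probe was well above background on 1 array alone. Of the kinases and checkpoint genes, Aurka (0.84), Bub1 (0.89) and Cdc20 (0.92) rose, with limma adjusted p = 0.029, 0.018 and 0.00856. Plk1 at 0.41 and Aurkb at -0.52 did not pass (limma adjusted p = 0.0516 and 0.0559), nor did Top2a, DNA topoisomerase II alpha, at -0.08.

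ES cells gave a second pluripotent culture against the same BMMNC array. The comparisons share that array, so they are not independent. In ES cells 11 members were at least 2-fold higher than in BMMNCs, against 28.6% of all genes, and 7 at least 2-fold lower, against 26.5% (55.1% in either direction), with no test because each group was 1 array. The higher ones were Aurka, Bub1, Ccna1, Ccnb1, Ccnd1, Ccne1, Ccnf, Cdk6, Cdt1, E2f3 and Mybl2, and the lower ones Ccna2, Ccnd3, Cdc25b, E2f2, Rb1, Rbl1 and Rbl2. Side by side, the log2 difference from BMMNCs of E2f2 was -7.06 in iPS cells and -5.37 in ES cells, and that of Cdc25b was -2.84 in iPS cells and -2.68 in ES cells. For the pocket proteins these differences were -2.54 in iPS and -2.20 in ES cells (Rb1), -2.87 and -2.58 (Rbl1), and -2.61 and -1.92 (Rbl2). For Mybl2 they were 3.01 in iPS cells and 2.70 in ES cells, and for Cdt1 0.56 and 1.003.

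Against ES cells, most members stood slightly lower in the iPS lines, and 1 passed the test. E2f2 fell by 1.70 (SE 0.15, 3.24-fold, limma adjusted p = 0.0481), and no member rose, against 4.78% of all genes called, 1.97% risen and 2.81% fallen. E2f2 passed under 5 of 9 alternatives. It was below ES cells in 2 of 2 lines, which are the lines the test itself uses. At an unadjusted p under 0.05 there were 12 members below ES cells and 2 above, 32.6% of members, against 17.7% of all genes below and 13.4% above (31.1% in either direction). The mean of the iPS lines lay below ES cells for 35 of 43 members and for 11839 of all 21216 genes tested. The median difference was -0.21 for members, against -0.05 over all genes. Of 96 other cell cycle genes tested, 76 lay below ES cells, with a median of -0.22, so the shift was not particular to the members. Among genes well above background on all 4 arrays, 81.0% of 42 members and 56.6% of all genes lay below ES cells. By size, Ccna1 and E2f2 were at least 2-fold lower in both lines and no member was at least 2-fold higher, which is 4.65% of members against 6.51% of all genes (2.36% higher and 4.15% lower).

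All 13 S-phase members lay below ES cells in both lines, with log2 differences from -1.66 to -0.11. By the mean of both lines, 11839 of all 21216 genes tested and 76 of 96 other cell cycle genes lay below ES cells. On its brighter probe, Mcm3 was at 5.29 and 5.37 in iPS lines 7 and 13 and 6.23 in ES cells. That difference was -0.90 (limma adjusted p = 0.0593), while the other probe, also well above background on all 4 arrays, gave -0.33. Mcm5 was at 4.94 and 5.03 in the iPS lines against 5.73 in ES cells (difference -0.75, limma adjusted p = 0.0689). Neither gene passed. The 3 D cyclins lay above ES cells in both lines, with differences of 0.74 for Ccnd1, 0.31 for Ccnd2 and 0.61 for Ccnd3 (limma adjusted p = 0.0814, 0.207 and 0.0914). These, too, did not pass. No S-phase member or D cyclin changed sign against ES cells under any alternative run, and the number of members below ES cells was 32 to 35.

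**Figure D4:**
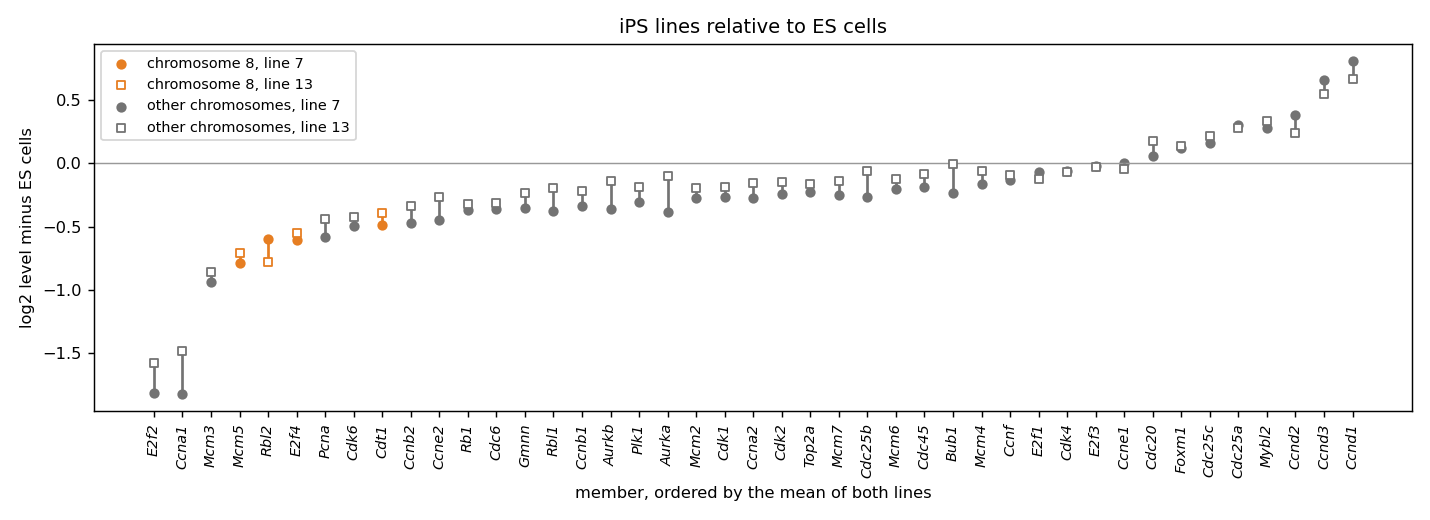
Log2 level minus that of ES cells for the 43 members in iPS line 7 (circles) and iPS line 13 (squares), ordered by the mean of both lines. The 4 members of chromosome 8 are drawn in orange, with points from -0.79 (Mcm5, line 7) to -0.39 (Cdt1, line 13). Their means of both lines, which are not drawn, lie between -0.75 and -0.44. The D cyclins are at the right, up to 0.81 for Ccnd1 in line 7 (mean of both lines 0.74).

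Genes of chromosome 8 had a median iPS minus ES difference of -0.39, over 601 genes well above background in all 3 cultures. Medians of the 19 other chromosomes lay between -0.05 and 0.02. The members there are Cdt1, E2f4, Mcm5 and Rbl2, and their median was -0.63, against -0.19 for the 39 members elsewhere. Of the other cell cycle genes, 6 lie on chromosome 8: Cdc16, Cul4a, Gins3, Gins4, Orc6 and Tfdp1. All 6 lay below 0, from -1.06 to -0.03, with a median of -0.42. Of the 90 elsewhere, 70 also lay below 0, with a median of -0.21. The part of the chromosome's shift in these members was not tested.

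The lines themselves differed little. No member was at least 2-fold apart between lines 7 and 13, against 2.44% of all genes (1.32% higher and 1.12% lower in line 7), and the largest gap was 0.34, in Ccna1. Among genes well above background on all 4 arrays, the median gap was 0.0997 for 42 members and 0.0827 for 14859 genes. Line 7 lay below line 13 for 13 of 13 S-phase, 14 of 14 mitotic and 7 of 16 G1 members tested, and for 57.8% of all genes. The same held for 88 of the 96 other cell cycle genes tested (91.7%), so it was not particular to the members. The 3 D cyclins were higher in line 7. These are single arrays, and no test was made.

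The other genes of the cell cycle were read from a list of 107, of which 96 were tested. Of these 30 rose, 26 fell and 40 did not pass against BMMNCs, with a median of 0.02. That is 58.3% called, against 75.6% of all genes, with 38.3% of all genes risen and 37.4% fallen. Of the genes of nucleotide supply, Rrm1, Rrm2, Tyms, Tk1 and Dut fell. Tk1, thymidine kinase, was at 2.25 and 2.33 in iPS lines 7 and 13, 2.57 in ES cells and 4.07 in BMMNCs, and Rrm1, the large subunit of ribonucleotide reductase, fell by 1.47. In the list of origin recognition and helicase loading 7 of 8 rose, namely Orc1 to Orc6 and Mcm10, by 0.47 to 1.32. The MCM helicase subunits among the members did not pass.

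The 4 largest rises among genes above background on all arrays were in E2f5 (3.20), Ticrr (2.74), Cul4b (2.54) and Mnat1 (2.12), with limma adjusted p = 0.00118, 0.00111, 0.00135 and 0.00144. E2f5 is a repressor E2F related to E2f4, Ticrr encodes an origin firing factor, Cul4b a ubiquitin ligase scaffold and Mnat1 a subunit of the CDK-activating kinase. The 4 largest falls were in Tfdp2 (-2.13), Tk1 (-1.78), E2f8 (-1.73) and Rrm1 (-1.47), with limma adjusted p = 0.00143, 0.00213, 0.00195 and 0.00288. Tfdp2 encodes a dimer partner of E2Fs and E2f8 an atypical repressor E2F.

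**Figure D5:**
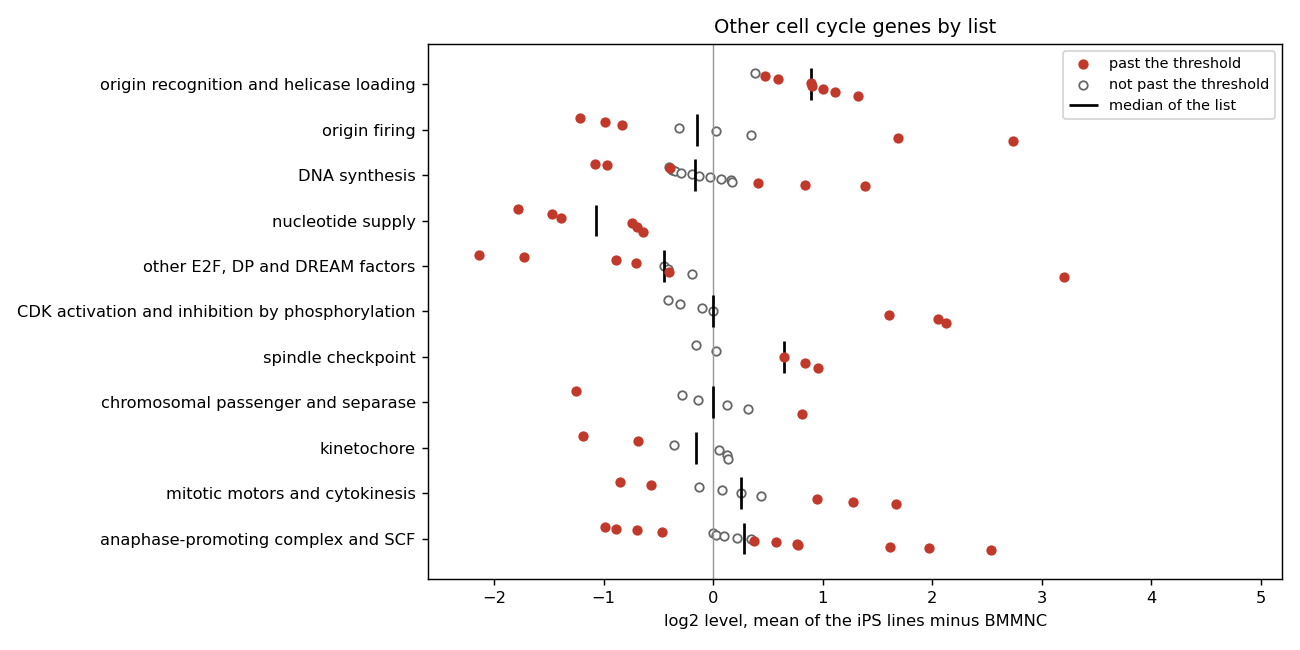
Log2 difference of iPS lines (mean) minus BMMNCs for 96 other cell cycle genes by list, with genes past the threshold filled, others open, and a bar at each list's median. In the top row, 7 of 8 origin recognition and helicase loading genes are filled to the right of 0.

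Against ES cells 2 of these 96 genes passed, which is 2.08%, against 4.78% of all genes. Prim2, the large primase subunit, was at 2.26 and 2.29 in iPS lines 7 and 13, -0.27 in ES cells and 2.66 in BMMNCs, so the ES array stood apart (iPS minus ES 2.54, SE 0.09, limma adjusted p = 0.0425). E2f8 was at 0.14 and 0.16 in the iPS lines, -0.95 in ES cells and 1.88 in BMMNCs (iPS minus ES 1.097, SE 0.09, limma adjusted p = 0.0464).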

How the data were processed

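The authors deposited 1 scanner file per array, read with Agilent Feature Extraction 9.5 per the submitters' processing notes and 9.5.1.1 per the file headers. Its processed signal is an intensity from which the scanner software removed background and a spatial trend, per the file headers. The authors also deposited a table of intensity values, which here equalled the processed signal over a single constant for each array, with column medians of 135.9 and 133.6 (iPS lines 7 and 13), 139.9 (ES cells) and 106.2 (BMMNCs); how those constants were set is not given in the sources used here. The deposited marks per spot for background, saturation and outliers are other values of 0 or 1, per the file headers, and no spot was saturated.

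Control and outlier spots were dropped, the log2 values of a probe's spots were averaged, and each array's 75th percentile over distinct probes was subtracted. A probe was well above background where a share of at least 0.5 of its spots was so marked. Unversioned accessions were looked up in RefSeq genes of GRCm38.p6, which named 22948 of 41160 probes; the array design predates that build, and the lookup gave names and chromosomes only, and coordinates are those of the RefSeq promoter table. The brightest probe stood for a gene, and the 21216 genes above background somewhere were tested with limma 3.58.1 in R 4.3.3. The fit had a mean for iPS, ES and BMMNC arrays, 1 residual degree of freedom, and a prior of 1.81 degrees of freedom and SD 0.094, with Benjamini-Hochberg adjustment over all genes and a threshold of 0.05. P-values measure only the spread between the 2 lines, with 1 array each. "At least N-fold" sets the bright group's mean against the higher of the dim gene's own level and the lowest level well above background. The test was checked on simulated data.

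The members and lists were chosen with earlier results of these data known. All members are named. Of the other cell cycle genes, the 4 largest and 4 smallest differences from BMMNCs past the threshold and above background on all arrays are named, and any past the threshold against ES cells; others complete a count. The percentile was first computed in both ways, over distinct probes and over all spots, and calls under both were seen before the one over distinct probes was kept, in part because its counts of calls against BMMNCs matched those of an earlier analysis of the same files, while those against ES cells differed slightly from it for a cause not found; the other is given as an alternative chosen after the data were seen. The mean spot signal that normexp was planned on is not in the columns used here, so normexp (offset 50) ran on the median signal. D cyclin proteins were not analysed here. A result for 1 other cell cycle gene is not reported here. The number of arrays limits the precision.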

Additional observations from a re-analysis of the deposited data

Results flagged for a closer look

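In 3 genes the iPS lines and ES cells differed in their distance from the shared BMMNC array, by limma's test of iPS against ES (adjusted p under 0.05). E2f2 was lower in the iPS lines, with iPS minus ES at -1.70. Prim2 was higher in the iPS lines at 2.54, and E2f8 was higher at 1.097. In each case 2 of 2 lines showed the direction, but the test that picked these genes uses the same lines, so this adds no support. Each difference rests on 1 ES array, and no group had enough arrays to look for an outlying one. With the authors' table, and with no filter on dim probes, no gene passed against ES cells, these 3 included.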

How the results depend on the processing

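The 17 members Ccna1, Ccna2, Ccnb1, Ccnd1, Ccnd3, Ccne1, Ccnf, Cdc20, Cdc25b, Cdc25c, Cdk4, E2f2, E2f3, Mybl2, Rb1, Rbl1 and Rbl2 kept direction and call against BMMNCs under every alternative that tested them, of 30 called. With no filter on dim probes 11 rose and 7 fell, and with ES and iPS arrays as 1 group 7 fell. Median scaling, which shifted the median of all genes by -0.21, gave 14 risen and 17 fallen; normexp shifted it by -0.20 and the authors' table by 0.11. The count against ES cells varied most. Members risen were 3 with normexp, 5 among genes above background on all 4 arrays and 5 with an intensity trend; members fallen were 12, 14 and 19 under these, and 0 with quantile normalization, the authors' table, no filter or the mean of all probes. Over all genes, 419 rose and 596 fell; normexp gave 2476 and 3258, genes above background on all arrays 2473 and 3253, the trend 3341 and 4245, and the authors' table and no filter 0 and 0. E2f2 passed against ES cells under 5 of 9 alternatives (adjusted p 1.11e-11 to 0.170). Among genes above background on all arrays, 1 member was at least 2-fold lower than in ES cells, and with median scaling 5 members were at least 2-fold higher in ES cells than in BMMNCs. The percentile over all spots, chosen after seeing the data, gave 18 risen and 12 fallen against BMMNCs and 0 and 1 against ES cells.

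Signs turned as follows against BMMNCs: Cdk2 -0.428 with the mean of probes; Mcm3 0.0602 with quantile normalization, 0.0592 with the mean of probes and 0.175 with 1 group; with median scaling Mcm4 -0.148, Mcm5 -0.0861 and Mcm7 -0.166; Cdc45 0.0541 with normexp, 0.0061 with quantile normalization, 0.0812 with the authors' table and 0.0121 with 1 group; Top2a 0.0327 with the authors' table. Against ES cells, Cdk4 was 0.0176 with median scaling, and Cdk1 was 0.419 with the mean of probes. With normexp, quantile normalization, median scaling and the authors' table, E2f3 was 0.0247, 0.0112, 0.0582 and 0.00712, and Ccne1 was 0.00691, 0.0713, 0.0617 and 0.00879. Of these turned values Cdk2 alone passed the threshold. The cause was not tested. Without line 7 or line 13, members at least 2-fold higher than BMMNCs were 7 to 9 and lower 7 to 7, and against ES cells 0 to 0 and 2 to 2; no test was possible with 1 line, since no residual degree of freedom was left. No paired analysis was possible because the groups share fewer than 2 replicate numbers.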
